A study of Mus musculus with 56 samples.

Results

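Ageing of astrocytes was examined in mice that lack Trem2. The comparison set 7 astrocyte libraries from old Trem2 -/- mice (knockout, KO) against 7 from young Trem2 -/- mice, chosen by genotype, cell type and age in the sample labels, so that it used 14 of the 56 libraries of the study. Each library came from 1 mouse, all mice were female, and cells were sorted from whole brain with an antibody to ACSA-2, a surface antigen of astrocytes carried by the protein of Atp1b2. Young mice were 2 months old; old mice are labelled 16 months and the protocol gives 16 to 18 months. The reference groups were 7 young and 7 old Trem2 +/+ (wild-type, WT) astrocyte libraries, and the microglia (Cd11b+ cells) sorted from the same 14 KO mice. Every KO mouse was a homozygous knockout at both ages, and neither the strain nor the deleted part of the gene is stated in the labels. Counts are of sequenced 3′ ends of poly-adenylated transcripts, and levels are given as CPM, counts relative to the library total after trimmed-mean (TMM) scaling. A fold change is old minus young on the log2 scale, given ± its standard error (SE). Of 53801 genes in the table, 7524 had enough counts in astrocytes to be tested.

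Trem2 is a lipid-binding receptor of microglia and related myeloid cells, and astrocytes are not known as a main site of its expression. Astrocytes take up glutamate and potassium at synapses, supply cholesterol and other lipids to neurons, and can take on a reactive state with raised Gfap, Vim and complement genes. With age, astrocytes and microglia of the mouse brain are known to raise genes induced by interferons, secreted proteins that bind a cell surface receptor and switch on antiviral genes. In that pathway factors that include Stat2 and Irf9 bind a promoter element, the interferon-stimulated response element (ISRE).

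The ISRE core is shown here because Ifit1 and other members of the interferon-stimulated list carry the results that follow. The motif searched was GAAANNGAAA on one strand and TTTCNNTTTC on the other, with overlapping matches counted, in RefSeq promoters of 300 bases that run from 250 before to 50 after the annotated start (GRCm38.p6). Of 25 listed genes, 18 had a promoter in the table and 11 of these (61.1%) held the motif, against 3.44% of all 32851 promoters. The first 220 bases of 3 promoters are printed 5′ to 3′ in the direction of the gene, with matches in capitals. They belong to the tested list members with a match and the smallest p in KO ageing: Ifit1 at chr19:34640639-34640858 (+ strand), Ifit3 at chr19:34583279-34583498 (+ strand) and Bst2 at chr8:71537503-71537722 (- strand).
Ifit1: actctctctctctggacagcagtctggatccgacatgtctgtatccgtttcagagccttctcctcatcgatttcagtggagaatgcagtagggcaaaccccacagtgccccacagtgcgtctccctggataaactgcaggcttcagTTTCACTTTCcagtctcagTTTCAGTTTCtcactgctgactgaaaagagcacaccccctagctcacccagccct
Ifit3: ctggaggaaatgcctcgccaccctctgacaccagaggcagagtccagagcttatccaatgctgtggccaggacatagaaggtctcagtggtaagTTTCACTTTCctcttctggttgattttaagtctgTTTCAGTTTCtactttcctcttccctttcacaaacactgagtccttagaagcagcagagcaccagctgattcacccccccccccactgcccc
Bst2: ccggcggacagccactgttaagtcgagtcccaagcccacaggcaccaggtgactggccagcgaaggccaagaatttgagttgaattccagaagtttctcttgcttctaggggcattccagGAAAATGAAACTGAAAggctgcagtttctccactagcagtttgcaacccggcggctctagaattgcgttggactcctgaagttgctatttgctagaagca
Ifit1 and Ifit3 hold the same pair of letters, TTTCACTTTC and TTTCAGTTTC, and in Bst2 the matches overlap. The promoter window of Lgals3bp, another list member described below, had no match. A match is a run of letters and was not measured as a binding site.

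Library totals ranged from 296498 to 768611 counts in young KO and from 375110 to 748246 in old KO astrocytes. The 26 astrocyte identity genes, which include Slc1a2, Aqp4 and Atp1b2, summed to 36420 to 42706 CPM in young and 30927 to 41708 CPM in old KO libraries, against 1815 to 3936 CPM in the microglia sort of the same mice. Microglia markers summed to 2103 to 5188 CPM in KO astrocyte libraries, and oligodendrocyte markers to 1092 to 16655 CPM, so the sort also held RNA of other cells. Trem2 itself lay between 0 and 35.5 CPM in KO and between 0 and 13.7 CPM in WT astrocyte libraries. In the microglia sort, where it can be read, Trem2 was at 70.0 to 156 CPM in KO and 277 to 639 CPM in WT libraries. One old KO astrocyte library, of animal 12, stood apart. Its median correlation with the other old KO libraries was 0.771, against 0.872 to 0.913 for the other 6, and it had the lowest Atp1b2 (324 CPM) and the highest Trem2 and microglia marker sum of the 14 libraries. Several results are also given without this library, but not every result that it moves.

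Few genes passed the test in old against young KO astrocytes. With edgeR's quasi-likelihood test and Benjamini-Hochberg adjustment over all genes, 3 of 7524 genes (0.0399%) had an adjusted p under 0.05. Ifit1 and AC149090.1 were higher and Grm5 was lower in old mice. By unadjusted p under 0.05, 308 genes (4.09%) were higher and 245 (3.26%) lower, 553 in all (7.35%). Log2 fold changes were above 0 for 50.1% of genes, and the median was 0.00. In 14 genes (0.186%) the 7 old and 7 young values did not overlap. Ifit1, Lgals3bp, Zc3hav1, Scd1, Xist, Negr1, Wnk2, Shroom3, Cry2 and Nub1 lay higher in old mice and Grm5, Syt11, Fam171a2 and AC123684.1 lower. In counts simulated at these depths with 200 changed genes, the test found 65.7% of genes changed 2-fold and 20.9% of those changed 1.5-fold. That simulation gave 126 calls, against 3 here. The adjusted threshold is stricter on p when fewer genes pass, so these shares may be too high for the real data. A difference of 1.5-fold was often not detectable here. Apart from Ifit1, Grm5 and 14 genes followed whatever their p, the genes named were chosen after their values were seen. Those 14 include Gfap, Apoe and Slc1a2.

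Ifit1, which encodes an interferon-induced protein that binds viral RNA, had the smallest p. In young KO astrocytes it lay at 1.92 (lowest), 5.18 (median) and 12.0 CPM (highest), and in old ones at 23.7, 27.4 and 38.6 CPM. Every old library was above every young one, at 10 or more counts per library in old and 1 to 7 in young mice. The mean rose from 6.53 ± 4.09 to 28.3 ± 4.94 CPM (SD, n = 7 each), a log2 fold change of 2.14 ± 0.35 (edgeR adjusted p = 0.00276). It passed the test with each of the 14 libraries left out in turn. With the microglia marker sum as a covariate the log2 fold change was 2.14.

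The neighbouring gene Ifit3, of the same family, lay at 3.68, 10.3 and 16.6 CPM in young and 15.5, 31.8 and 68.2 CPM in old KO astrocytes (lowest, median, highest). The groups touched at 1 pair of values, and animal 8 alone exceeded 40 CPM. Its log2 fold change was 1.43 ± 0.31 with an adjusted p of 0.0752, and without animal 12 it was 1.49 with an adjusted p of 0.0479. Ifit3 has a close copy, Ifit3b, so the split of counts between them is uncertain. Lgals3bp, a secreted glycoprotein induced by interferon, lay at 33.1, 37.7 and 49.8 CPM in young and 56.1, 71.2 and 126 CPM in old mice, with no overlap, and its log2 fold change was 0.97 ± 0.22 (adjusted p = 0.0878). Zc3hav1, an antiviral RNA-binding protein outside the list, went from 9.62 ± 3.06 to 22.4 ± 6.93 CPM without overlap, a log2 fold change of 1.27 ± 0.30 (adjusted p = 0.104). In WT mice Zc3hav1 differed by 0.23 ± 0.30.

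**Figure D1:**
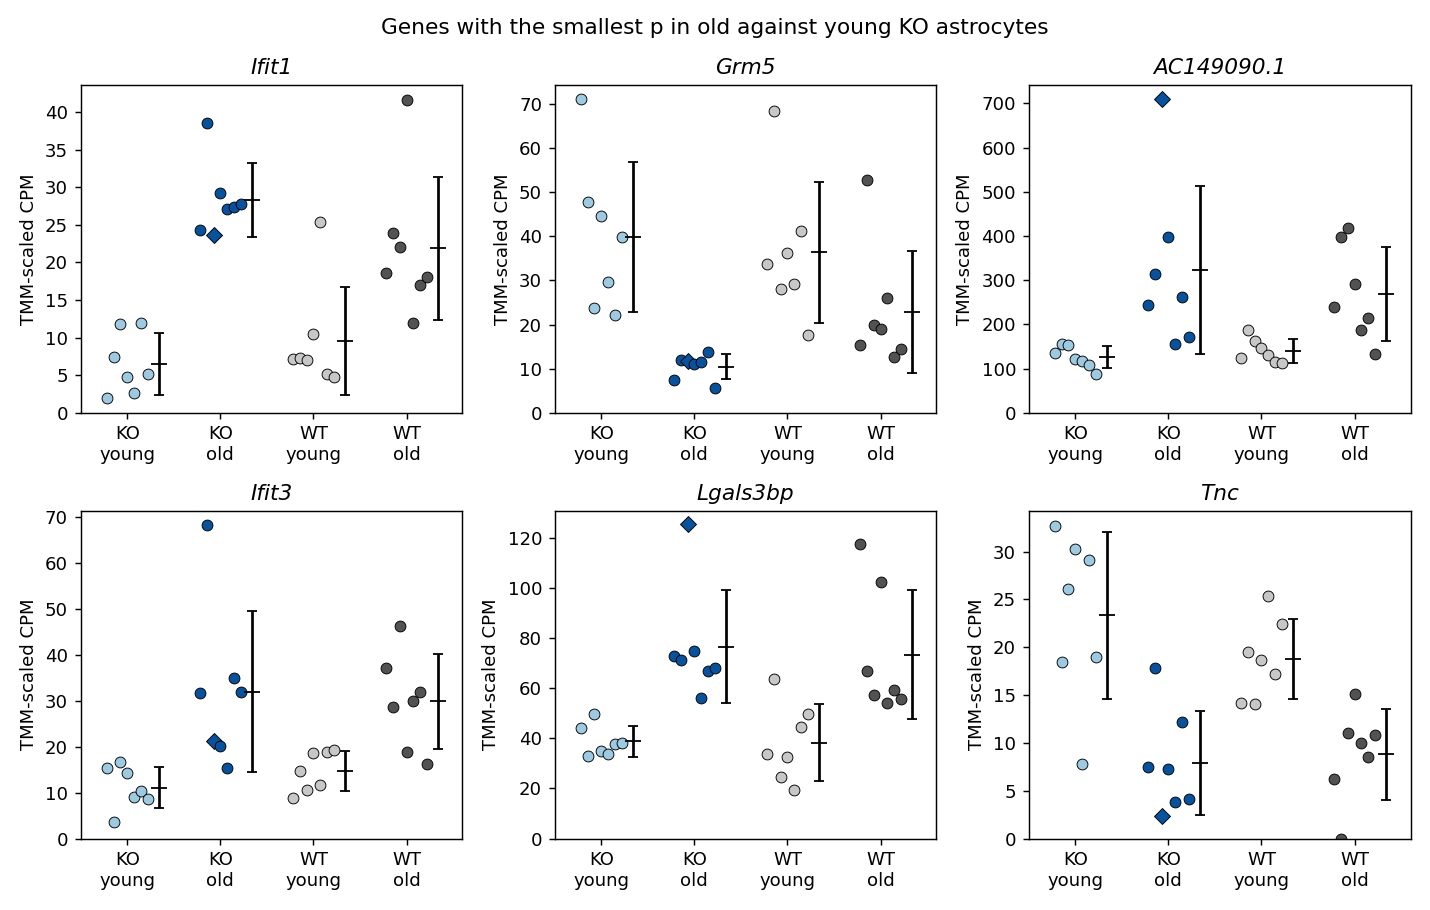
TMM-scaled CPM (vertical axis) of the 6 genes with the smallest p in KO ageing, 1 point per library and 7 per group; bars show mean and SD, and the diamond is animal 12. Old KO libraries lie above all young KO libraries for Ifit1 and Lgals3bp and below all of them for Grm5, and animal 12 has the highest AC149090.1 (710 CPM).

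The interferon-stimulated list as a whole lay higher in old KO astrocytes. All 14 tested members of 25 had a log2 fold change above 0, with a list median of 0.64 against 0.00 for all genes. List members were chosen with earlier results of these data known. The count filter needs enough counts in 7 libraries of any group. Ifit1, with 1 to 7 counts per library in young KO mice, passed it mainly through old libraries. Trim30a likewise was at most 17.2 CPM in young libraries. The signs of such members are not independent of the filter. Ifit1 alone passed the adjusted threshold, and 9 members were higher at an unadjusted p under 0.05, where 4.09% of all genes were. These were Ifit1, Ifit3, Lgals3bp, Ifi27, Bst2, Trim30a, Rtp4, Ifitm3 and Isg15. Bst2, which tethers virus particles to the cell, went from 14.5 ± 9.37 to 28.6 ± 14.98 CPM. Ifi27 went from 73.4 ± 22.8 to 115 ± 37.2 CPM. The signalling factors Irf9 and Stat2 had smaller differences, of 0.49 ± 0.31 and 0.23 ± 0.35. Of the 11 members with too few counts to test, 9 had a higher mean in old mice, 1 (Mx1) a lower one, and Oas1a was at 0 counts in all KO astrocyte libraries. The share over all genes below the filter was not counted, so no direction can be read from these members. With each library left out in turn, all 14 members stayed above 0, the median ranged from 0.56 to 0.77, and 6 to 10 members had an unadjusted p under 0.05. Without animal 12 there were 7 such members, and Ifitm3 was at 0.43, against 0.63 in the main fit. Members share an inducer and are not independent of each other.

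By mouse, the summed CPM of the 25 genes was 270 (lowest), 357 (median) and 453 (highest) in young and 396, 613 and 878 in old KO astrocytes. Animal 20 was the old library inside the young range, and animal 8 was the highest. Against the mean of the young libraries, old libraries were higher in 79 of 91 pairs of a gene and a library, over 13 of the 14 tested genes. Animals 4 and 24 were higher for all 13 genes and animal 20 for 8. Animal 8 also had the highest Ifit1, Ifit3, Bst2 and Isg15 and the highest endothelial marker sum of the old group (166 CPM, against at most 101 CPM in the other 6). The part of endothelial RNA in this library's levels was not tested. Without animal 8 the list median was 0.56, with 6 members at an unadjusted p under 0.05 and Ifit1 still past the adjusted threshold.

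**Figure D2:**
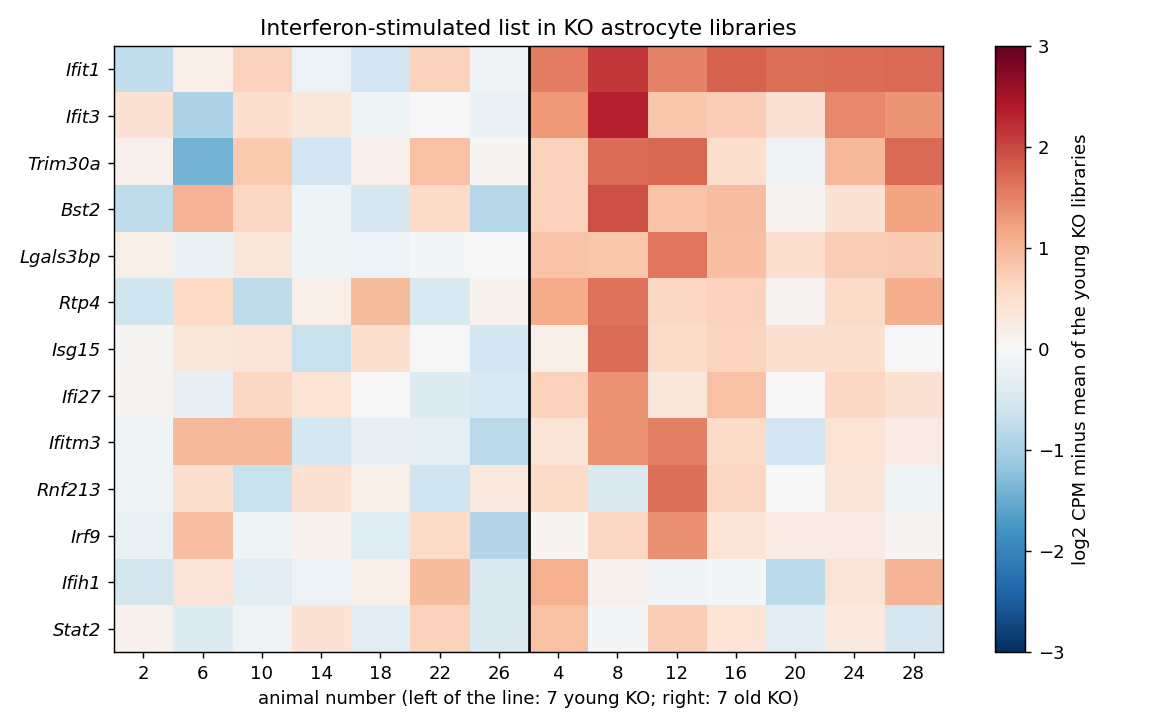
Log2 CPM of 13 of the 14 tested interferon-stimulated genes (rows) in each KO astrocyte library (columns, by animal number), less the gene's mean over the 7 young KO libraries. Old libraries, right of the line, are above that mean in 79 of 91 cells, and the highest value (2.32) is Ifit3 in animal 8.

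Genes of MHC class I, which present peptides to T cells and are also induced by interferon, had differences of the same sign. Of 15 listed genes 4 were tested, all were above 0 (50.1% of all genes were), and 3 were higher at an unadjusted p under 0.05 (4.09% of all genes were), with none past the adjusted threshold. H2-D1, a class I heavy chain, lay at 11.9, 19.2 and 36.8 CPM in young and 23.7, 42.6 and 44.5 CPM in old KO mice (lowest, median, highest; log2 fold change 0.81 ± 0.26, adjusted p = 0.415). H2-K1 and the light chain B2m differed by 0.41 ± 0.14 and 0.41 ± 0.15. The class I heavy chains resemble each other closely, so counts may be split between them. The count of 3 members at an unadjusted p under 0.05 held with each library left out. Without animal 12, 3 of the 4 tested genes were above 0 and 1 was below.

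Grm5, which encodes the metabotropic glutamate receptor mGluR5, a receptor that astrocytes are known to carry mainly in early life, was the gene lower in old KO mice. Young libraries lay at 22.3, 39.8 and 71.0 CPM and old ones at 5.55, 11.6 and 13.7 CPM (lowest, median, highest). All old libraries were below all young ones, and the old group was narrow, at 4 to 9 counts each. The mean fell from 39.9 ± 16.99 to 10.4 ± 2.85 CPM (SD, n = 7 each), a log2 fold change of -1.92 ± 0.32 (edgeR adjusted p = 0.00276). Grm5 passed the test with each library left out in turn. With RIN, the RNA integrity number, in the model, which drops animal 28 for lack of a value, it was -1.66 with an adjusted p of 0.0642.

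Other genes of glutamate, GABA and ion handling differed less. All 18 list members were tested, 14 were below 0, the median was -0.12, and 3 were lower at an unadjusted p under 0.05 (3.26% of all genes were). Apart from Grm5 these were Grm3, the other metabotropic glutamate receptor of astrocytes, and Slc7a10, an exchanger of serine and other small amino acids. Grm3 had 275 ± 40.8 CPM in young and 194 ± 70.1 CPM in old mice (-0.49 ± 0.17, adjusted p = 0.426). Without animal 12, in which Grm3 was at 94.7 CPM, the difference was -0.37 and the list median -0.05. Slc1a2, the main glutamate transporter, lay at 6909 ± 603 CPM in young and 6595 ± 897 CPM in old mice, a difference of -0.07 ± 0.11.

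Genes of immature and progenitor cells were mostly lower in value. Of 12 listed genes 7 were tested, 6 were below 0 with a median of -0.36, and none passed the adjusted threshold. Those lower at an unadjusted p under 0.05, as 3.26% of all genes were, were Sox11, a transcription factor of immature neural cells, the growth factor receptor Egfr and Hopx, a marker of progenitor astroglia. Sox11 lay at 35.6, 51.6 and 89.2 CPM in young and 21.3, 28.4 and 48.6 CPM in old KO mice (lowest, median, highest; -0.77 ± 0.21, adjusted p = 0.194). The ranges overlapped. All 5 members below the filter had a lower mean in old mice, but the share over all such genes was not counted, so this gives no direction. Without animal 12 the median was -0.29 and 1 member had an unadjusted p under 0.05. Tnc, an extracellular matrix protein of immature astroglia, is outside this list. It had 23.3 ± 8.77 CPM in young and 7.88 ± 5.44 CPM in old mice, a log2 fold change of -1.58 ± 0.35 (adjusted p = 0.0878). In WT mice Tnc differed by -1.01 ± 0.37. It belongs to a list of secreted synapse regulators, where 8 of 13 tested genes were below 0 and the median was -0.05. Tfrc, the transferrin receptor for iron uptake, differed by -0.73 ± 0.17 (adjusted p = 0.0952).

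AC149090.1 is a gene model annotated as protein coding on an unplaced scaffold (JH584304.1, 52190 to 59690, GRCm38), and counts may be shared with related sequence elsewhere. It lay at 88.1, 123 and 155 CPM in young and 155, 262 and 710 CPM in old KO libraries (lowest, median, highest). The lowest old and the highest young value were equal to within rounding. The log2 fold change was 1.36 ± 0.25 (adjusted p = 0.00897), and 1.04 with an adjusted p of 0.0371 without animal 12. It did not pass in a fit of the 14 KO libraries alone (adjusted p = 0.0583) or with robust estimation in edgeR (0.0809).

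Gm42418, an RNA gene model that overlaps ribosomal RNA sequence on chromosome 17, took 1.55% ± 0.63 of all counts in young and 2.50% ± 0.89 in old KO astrocytes (exact two-sided permutation test, p = 0.0455, and 0.192 after adjustment over 5 library measures). Mitochondrial ribosomal RNA took 16.0% and 18.1% (exact permutation p = 0.128), and mean RIN was 9.16 and 8.70 (exact permutation p = 0.153). With log2 Gm42418 as a covariate, chosen after the data were seen, Grm5 alone stayed past the threshold. Ifit1 then had a log2 fold change of 1.96 and an adjusted p of 0.0583, and AC149090.1 1.21 and 0.282. The part of this RNA in those results was not tested further.

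No reactive astrocyte gene passed the adjusted threshold. Gfap, the intermediate filament of reactive astrocytes, lay at 21.1, 32.8 and 64.0 CPM in young and 14.96, 36.7 and 59.3 CPM in old KO mice (-0.09 ± 0.31). The groups overlapped almost wholly. Vim differed by 0.02 ± 0.17. Serpina3n, a secreted protease inhibitor of reactive astrocytes, had 27.03 ± 8.35 CPM in young and 40.1 ± 15.2 CPM in old mice (0.58 ± 0.25, adjusted p = 0.613). Of 13 pan-reactive genes 5 were tested, 3 above 0. Complement C4b, below the filter, had 6.88 ± 5.78 CPM in young and 13.7 ± 2.59 CPM in old mice, while C3 and Lcn2 were at or near 0 counts in most libraries and allow no comparison. Of the 8 pan-reactive genes below the filter, 7 had a higher mean in old mice. In the neuroinflammatory list 3 of 12 genes were tested, all above 0 with a median of 0.81, and 2 were higher at an unadjusted p under 0.05 (4.09% of all genes were). Of its 9 genes below the filter, 7 had a higher mean in old mice, 1 a lower one and 1 was at 0 counts in both groups. For neither reactive list can a direction be read from genes below the filter, because the share over all such genes was not counted. The neuroinflammatory member H2-D1 also stands in the MHC list, and Fbln5, a matrix protein, went from 16.6 ± 8.83 to 41.2 ± 24.2 CPM (1.31 ± 0.38, adjusted p = 0.281).

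Lipid genes were examined because the study concerned lipid metabolism. Of the cholesterol synthesis list 21 of 25 genes were tested, 13 were below 0, the median was -0.16, and 4 (Cyp51, Hsd17b7, Msmo1 and Sqle) were lower at an unadjusted p under 0.05 (3.26% of all genes were). None passed the adjusted threshold. The list's summed level was lowest in animal 12 (1471 CPM, median of old libraries 1999), and without that library the median was -0.07 with 1 gene at an unadjusted p under 0.05. Sqle differed by -0.33 ± 0.16. Of 16 tested genes of lipid transport and storage 11 were above 0, the median was 0.06, and none had an unadjusted p under 0.05. Apoe, the main lipid carrier that astrocytes secrete, lay at 3158 ± 402 and 3637 ± 578 CPM (0.20 ± 0.13, adjusted p = 0.747), and the cholesterol exporter Abca1 differed by 0.06 ± 0.19.

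Oxidative phosphorylation genes, all 26 tested, were below 0 in 22 cases with a median of -0.13 and 2 lower at an unadjusted p under 0.05 (3.26% of all genes were). With libraries left out in turn the number above 0 ranged from 2 to 7. For cell division and MHC class II no gene had enough counts to test.

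**Figure D3:**
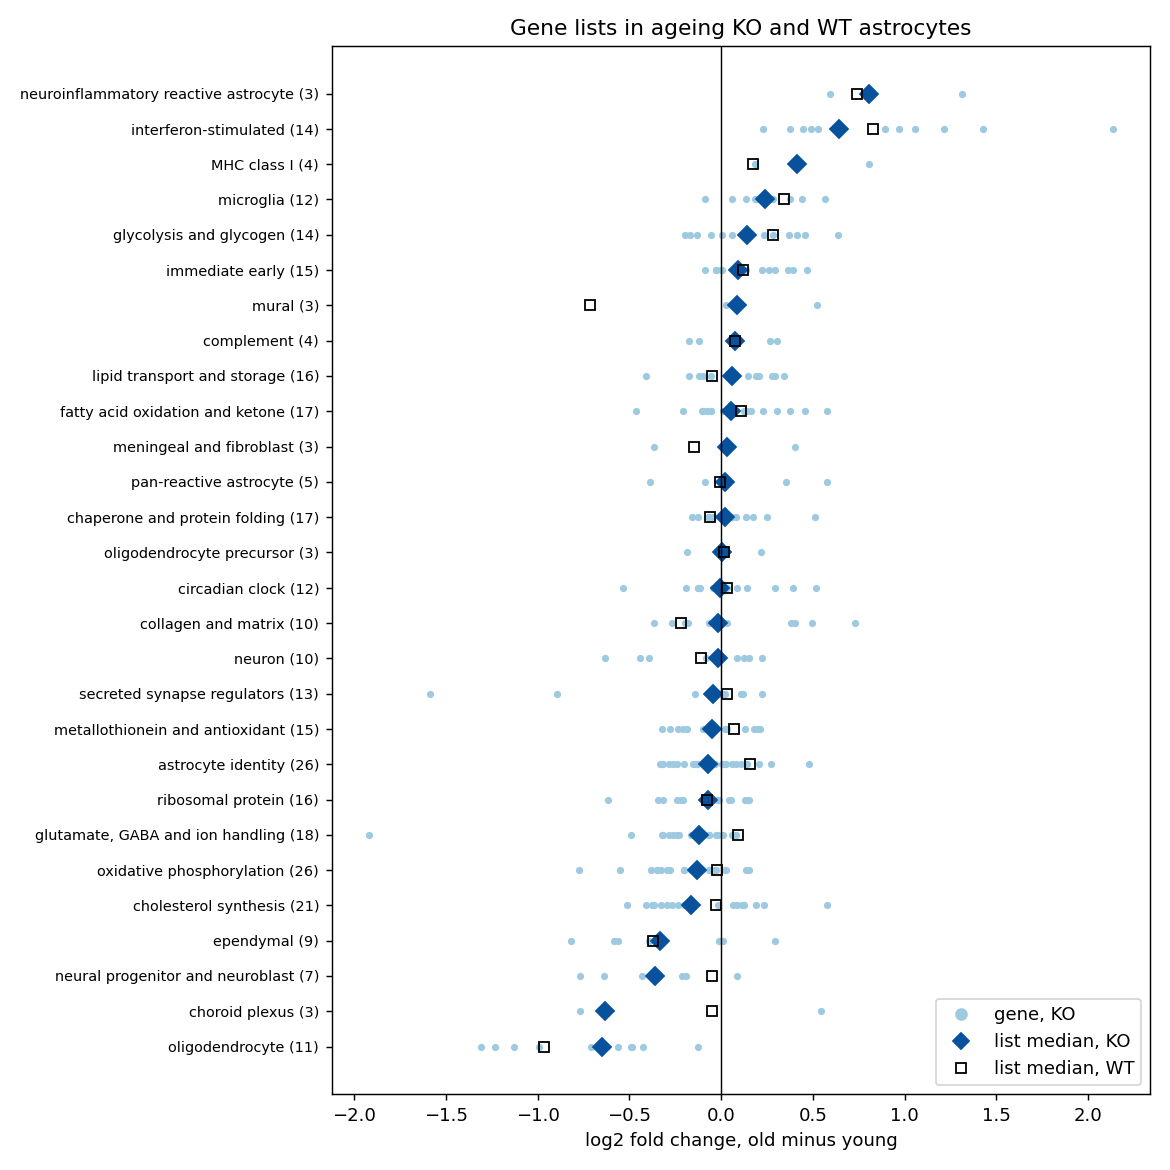
Log2 fold change, old minus young, for each gene list with 3 or more tested genes (number in brackets): small points are genes in KO astrocytes, filled diamonds the KO medians, open squares the WT medians. The interferon-stimulated and oligodendrocyte lists have the medians farthest from 0 among lists of 10 or more tested genes, on the same side in both genotypes.

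Oligodendrocyte transcripts, which are not products of astrocytes, were lower in value in old mice. All 11 tested markers of 12 were below 0, the median was -0.65 and 6 were lower at an unadjusted p under 0.05 (3.26% of all genes were), none past the adjusted threshold. Their summed level was 3098 (lowest), 7756 (median) and 16655 CPM (highest) in young and 1092, 5375 and 12487 CPM in old KO libraries, with wide overlap. Cldn11, a tight junction protein of myelin, differed by -1.23 ± 0.40 and Ugt8a, which makes a myelin lipid, by -1.31 ± 0.42 (adjusted p = 0.415 for both). Among the old libraries, that of animal 24 was highest for Cldn11, Mal and Ugt8a, at 204, 257 and 76.1 CPM, inside the range of the young libraries, which reached 312, 365 and 128 CPM. Without it the list median was -0.99 with 9 members at an unadjusted p under 0.05, and without the young library of animal 22 it was -0.45 with 4. Without animal 12, the library with the lowest sum, the median was -0.52 with 6 such members and 1 marker above 0. Fewer oligodendrocytes in the sort and less RNA per cell cannot be told apart. With the oligodendrocyte sum as a covariate, Ifit1, Grm5 and AC149090.1 still passed.

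Microglia markers gave no stable direction. Of 12 tested genes 11 were above 0 with a median of 0.24, but without animal 12 only 1 was above 0 and the median was -0.40. Their summed level was 2103, 2945 and 4041 CPM in young and 2190, 2938 and 5188 CPM in old KO libraries, and none had an unadjusted p under 0.05. Of 7 neutrophil markers Ltf was at 0 in all KO libraries, and the sum was 49.7 CPM in animal 12 and at most 16.7 CPM in the other old ones.

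**Figure D4:**
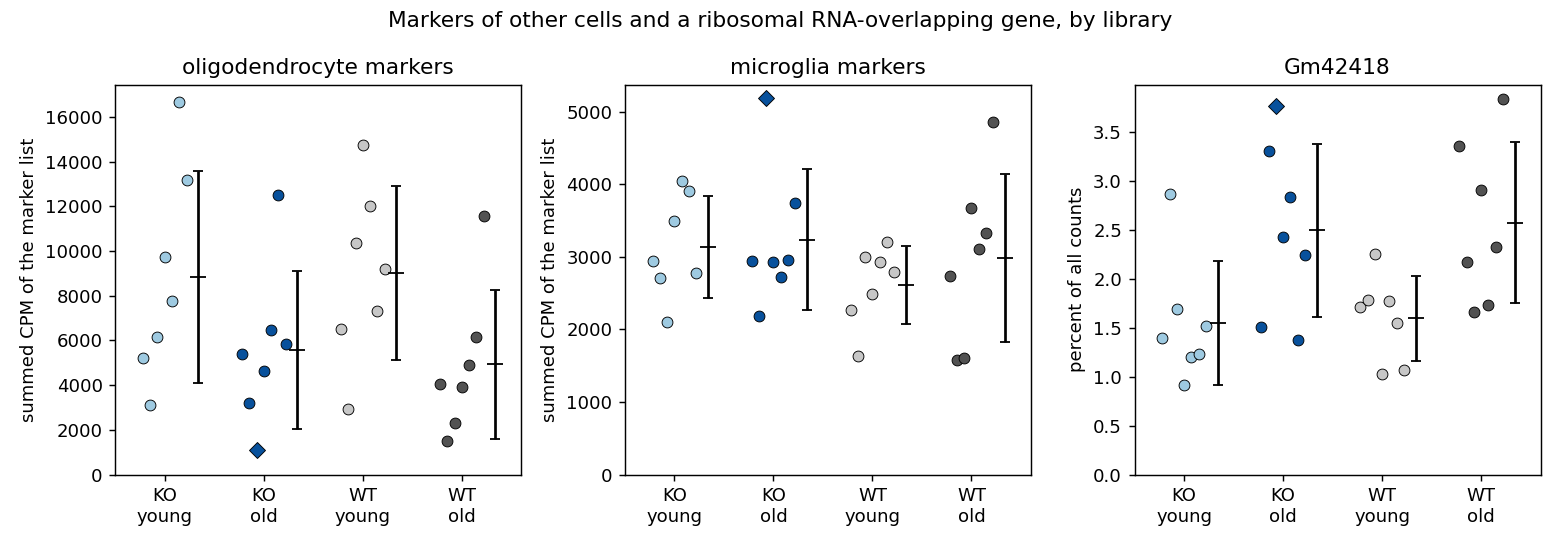
Summed CPM of oligodendrocyte and microglia markers, and Gm42418 as percent of all counts, by library; bars show mean and SD of 7, and the diamond is animal 12. Groups overlap in every panel, and animal 12 has the lowest oligodendrocyte and the highest microglia level.

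To ask whether the absence of Trem2 altered astrocyte ageing, old minus young was compared between KO and WT mice by an interaction term. No gene of 7524 (0%) passed in edgeR, and 302 (4.01%) had an unadjusted p under 0.05. DESeq2 also called none, and limma-voom called 1, Igfbp4. In WT mice alone 2 genes (0.0266%) passed, Adamts1 and Tfrc, both lower in old mice. Ifit1 differed by 1.08 ± 0.35 in WT, so the KO difference exceeded it by 1.05 ± 0.51 (adjusted p = 0.99999). Its levels in WT were 4.80, 7.10 and 25.3 CPM in young and 12.0, 18.6 and 41.6 CPM in old mice, which overlap. Grm5 differed by -0.76 ± 0.31 in WT, and the difference between genotypes was -1.16 ± 0.46 (adjusted p = 0.99999). These SEs leave room for a difference between genotypes in either gene.

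The interferon-stimulated list had 13 of 14 genes above 0 in WT (50.6% of all genes were) with a median of 0.83, and 10 at an unadjusted p under 0.05 (3.15% of all genes). The oligodendrocyte list had 11 of 11 below 0 with a median of -0.96 and 9 at that level (4% of all genes). The count filter bears on the interferon count here as in KO mice. Other lists differed more in value. The progenitor list had a median of -0.05 in WT and -0.36 in KO mice. For glutamate, GABA and ion handling, 13 of 18 genes were above 0 in WT (median 0.09, against -0.12 in KO). Of 26 astrocyte identity genes 22 were above 0 in WT and 10 in KO (medians 0.16 and -0.07). Of 4 MHC class I genes 3 were above 0 in WT, 0 at an unadjusted p under 0.05. No member of these lists passed the interaction test. The KO and WT comparisons share no library. Of the 553 genes with an unadjusted p under 0.05 in KO ageing, 404 (73.1%) had the same sign in WT, against 57.4% of all genes tested. Both p were under 0.05 with the same sign for 87 genes, 15.7% of the KO genes and 16.2% of the 538 WT genes (7.15% of genes tested), and with opposite signs for 8.

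Igfbp4, a secreted binding protein of insulin-like growth factors, had the smallest interaction p. In KO mice it lay at 54.8, 78.0 and 99.8 CPM in young and 85.2, 131 and 234 CPM in old libraries (lowest, median, highest; 0.83 ± 0.21, adjusted p = 0.170). In WT mice it went the other way, from 112 ± 19.1 to 78.5 ± 40.7 CPM (-0.52 ± 0.22). The difference between genotypes was 1.35 ± 0.30 with an adjusted p of 0.551. The old KO library with most Igfbp4, animal 8, was also the one with most endothelial marker RNA, whose part was not tested. Lyrm2, a small mitochondrial protein, went from 37.9 ± 7.07 to 20.6 ± 4.05 CPM in KO and from 26.4 ± 6.05 to 32.5 ± 9.63 CPM in WT mice (difference -1.18 ± 0.30, adjusted p = 0.798).

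In the microglia of the same KO mice, in a fit of all 56 libraries, 106 of 9434 genes (1.12%) passed the test between old and young, 95 higher and 11 lower. Of the 95, 48 were tested in KO astrocytes, where 28 were above 0 (50.1% of all genes tested there were) and none passed. At an unadjusted p under 0.05, 8 of the 48 differed in astrocytes. H2-K1, H2-D1, Lgals3bp, Ifitm3 and Rsad2 were higher in old mice (4.09% of all genes were), and Rps26, Clic4 and Emp2 were lower (3.26% of all genes were). Of the 11 lower genes, 7 were tested in astrocytes and 5 were below 0. Ifit1 differed by 1.32 ± 0.38 in microglia (adjusted p = 0.0710). All 14 interferon-stimulated genes were above 0 there too (45.8% of all genes were), with a median of 0.59. Astrocyte libraries held some microglial RNA, so the comparison is not of pure cells.

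**Figure D5:**
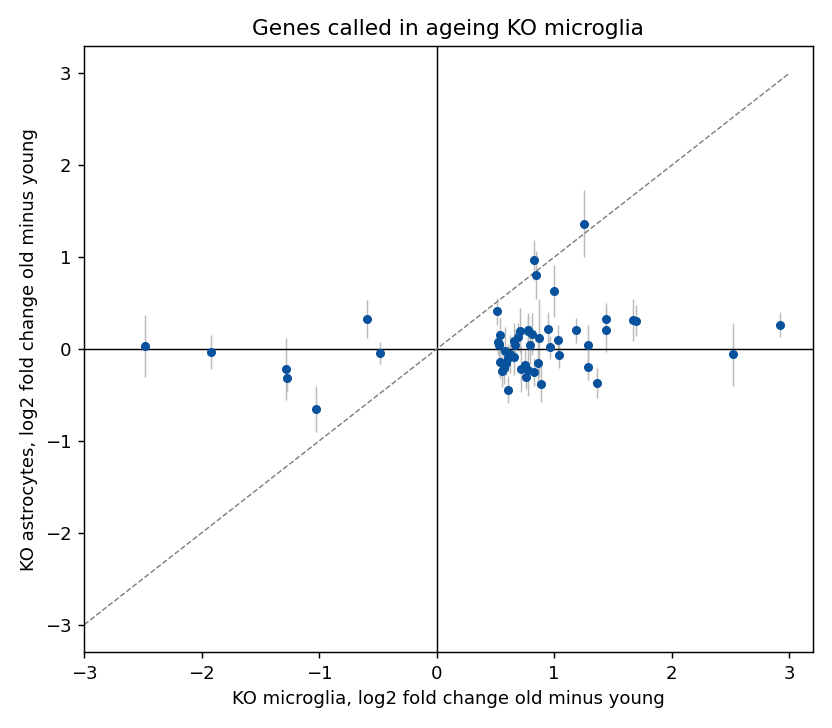
Log2 fold change, old minus young, of genes that passed the test in KO microglia and were tested in astrocytes: microglia on the horizontal and astrocytes (with SE bars) on the vertical axis; the dashed line marks equal values. Most genes lie near 0 in astrocytes, where 28 of 48 higher microglial genes were above 0, against 50.1% of all genes tested in astrocytes.

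The ageing difference itself differed between the cell types for 6 genes (0.0636%), all higher with age in microglia. In astrocytes Ildr2 and Mllt4 had smaller log2 fold changes above 0, and Rps26, Mageh1, Emp2 and Clic4 had values below 0. With the animal as a block, since both sorts came from the same mice, 10 genes passed. Ildr2, a membrane protein of the immunoglobulin family, had 123 and 149 CPM in young and old KO astrocytes (0.26) but 12.2 and 96.0 CPM in microglia (2.93), a difference of -2.66 ± 0.24 (adjusted p = 1.36e-12). The ribosomal protein gene Rps26 went from 115 to 83.1 CPM in astrocytes and from 304 to 462 CPM in microglia (difference -1.05 ± 0.20, adjusted p = 0.00678). The others were Mageh1, Emp2, Mllt4 and Clic4, each present at a higher CPM in the astrocyte than in the microglia sort at both ages. With 1 mouse left out in turn, 2 to 9 genes passed, and 2 passed without animal 2 or animal 10 (Ildr2 and Rps26).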

How the data were processed

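RNA from ACSA-2+ astrocytes and Cd11b+ microglia of 28 mice was made into 3′ tag libraries (QuantSeq with molecular identifiers), per the labels' protocols. FastQC 0.11.5, STAR, MultiQC, R 3.4.3 and the build GRCm38.p6 are named in the submitters' processing notes. How reads were counted, and whether by molecular identifier, was not given in those sources. The authors deposited 1 table of raw counts per gene, and 0 sample columns were left unused. Counts of the 28 astrocyte libraries were scaled by TMM, filtered with filterByExpr and fitted with edgeR 4.0.16 (R 4.3.3), 1 mean per group, so that all 4 astrocyte groups share the dispersion. Contrasts were KO ageing, WT ageing and their difference. Astrocytes and microglia of KO mice were compared in 1 fit of 56 libraries. Calls were made at an adjusted p under 0.05 (Benjamini-Hochberg over all genes tested). Each mouse is a replicate, and old and young groups share no mouse. The same mouse gave both sorts, per the labels: deviations of its 2 libraries from their group means had a median correlation of 0.119, against 0.00838 for other mice. Libraries of 1 group differed beyond sampling noise (chi-square per degree of freedom 1.64 to 11.7 over 42 pairs).

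Genes to be named were, among calls of KO ageing averaging 3 or more in log2 CPM (unnamed clones left out), the largest changes and smallest p, with up to 4 members of each list with several calls, the interaction calls, and 14 genes followed whatever their p. Ifit1 and Grm5 met it. Members, the 23 pathway and 15 marker lists and tests were chosen with earlier results of these data known. A list is described by counts and its median, with no test. Alternatives were other scalings, filters and tools (DESeq2 1.42.0, limma 3.58.1), covariates and libraries left out. Oligodendrocyte and Gm42418 covariates, and lists with libraries left out, were added after seeing the data. Library measures were compared by exact two-sided permutation over 3432 splits (1716 for RIN). The edgeR script was tested on simulated counts (200 changed genes, 7 false among 126 calls). Promoters are from RefSeq. A few genes of the lists are counted but not reported here by name.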

Additional observations from a re-analysis of the deposited data

Results flagged for a closer look

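A library was picked out where its gap to the nearest of the other 6 of its group was more than 0.568 of the group's range, Dixon's 95% limit for 7 values. Of 140 groups of values, 26 had such a library, where chance gives about 1 in 20 if values are independent and normally distributed. CPM was used without a log scale, and a normal distribution was not checked. Values are not independent, because genes and marker lists share libraries.

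Animal 12 (old KO) accounted for 7 of the 26. Its median correlation with its group was 0.771 (the next lowest was 0.872). It was highest for Trem2 at 35.5 CPM (next 9.72), Lgals3bp at 126 CPM (next 75.0), Trim30d, an antiviral gene of the Trim family, at 56.8 CPM (next 23.6) and Dst, a cytoskeletal linker, at 902 CPM (next 580). Border macrophage markers summed to 114 CPM there (next 49.97) and neutrophil markers to 49.7 CPM (next 16.7).

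Of the old KO libraries, that of animal 8 was highest for Ifit1 at 38.6 CPM, Ifit3 at 68.2 CPM, Isg15 at 80.1 CPM, Bst2 at 59.3 CPM, Igfbp4 at 234 CPM and endothelial markers at 166 CPM. Of the old KO libraries, that of animal 24 was highest for the myelin genes Mal at 257 CPM, Cldn11 at 204 CPM and Ugt8a at 76.1 CPM. Lcn2 had counts in animal 4 only among old KO libraries, at 1.87 CPM.

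Among young KO libraries animal 6 was highest for Gm42418, at 31322 CPM and 2.87% of counts, and for Ankrd11, a chromatin-associated protein, at 298 CPM, and lowest for Vim at 70.0 CPM. Animal 18 was highest for Sox11 at 89.2 CPM. Animal 22 was highest for Trem2 at 20.6 CPM and for neutrophil markers at 41.1 CPM. Animal 10 was highest for mural and for meningeal and fibroblast markers, at 199 CPM in each list.

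Ageing differed between astrocytes and microglia of KO mice, by a test of the difference itself (edgeR), for 6 genes, all with the smaller log2 value in astrocytes. The difference was -2.66 for Ildr2 (adjusted p = 1.36e-12), -1.05 for Rps26 (0.00678), -1.48 for Mageh1 (0.0178), -1.74 for Emp2 (0.0178), -1.39 for Mllt4 (0.0302) and -1.06 for Clic4 (0.0340). With the animal as a block 10 genes passed.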

How the results depend on the processing

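Old against young in KO astrocytes gave 3 genes past the threshold. RLE scaling, TMM without mitochondrial genes, a filter of at least 10 counts in 7 libraries, robust estimation, the 14 libraries alone and the RIN, microglia and oligodendrocyte covariates gave 2 to 4. No filter gave 35 (18 higher, 17 lower), DESeq2 11 (7 higher, 4 lower), limma-voom with quality weights 5, numbering sets (4 consecutive animals, 1 of each group, not called a batch in the labels) as a covariate 20, and the Gm42418 covariate 1. Leaving out 1 library gave 3 to 8, with 8 without animal 20 and 5 without animal 16 or animal 22, and Ifit1, Grm5 and AC149090.1 passed in all 14 of these fits. In WT astrocytes the 2 calls became 52 with no filter, 4 with DESeq2, 6 with limma-voom, 7 with the 14 libraries alone, 14 with numbering sets, 5 with the oligodendrocyte covariate and 0 with the RIN, microglia or Gm42418 covariate. Leaving out 1 WT library gave 0 to 9, with 9 without animal 27. The difference between genotypes had 0 calls, 2 with no filter (Apod and Igfbp4), 1 with limma-voom and 1 with numbering sets (Igfbp4 in both), and 0 to 1 with a library left out (Igfbp4, without animal 3). The difference between cell types had 6 calls, 7 with RLE scaling, 15 with no filter, 17 with limma-voom, 2 with the 28 KO libraries alone, 11 with numbering sets, 10 with the animal as a block (pairing of both sorts of 1 mouse), and 2 to 9 with a mouse left out. Why these counts moved was not tested. The fits of the 14 or 28 libraries alone held fewer samples, and in them calls rose for WT ageing and fell for the difference between cell types. Astrocyte ageing itself has no paired fit, because old and young groups share no mouse. No value called in the main analysis changed sign. Depth limits genes of a few counts per library, and those below the filter were not tested. In the simulation with 200 changed genes, 20.9% of 1.5-fold changes were found.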

Other observations

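Some gene groups outside the main account had values worth following, none past the adjusted threshold. Among 12 tested clock genes, Per3 (0.52 ± 0.17) and Cry2 (0.39 ± 0.16) had higher and Per1 (-0.53 ± 0.24) lower log2 values in old KO astrocytes, and the list median was -0.01. The old and young values of Cry2 did not overlap. The time of day of each dissection is not given in the labels. Dst and Syne2, which link the cytoskeleton to membranes or the nucleus, went from 360 ± 49.3 to 543 ± 176 CPM and from 44.2 ± 9.43 to 77.9 ± 24.5 CPM with age in KO mice. Their log2 fold changes were 0.59 ± 0.14 (adjusted p = 0.112) and 0.79 ± 0.19 (0.149). Without animal 12 they were 0.42 (adjusted p = 0.365) and 0.67 (0.404). In WT mice they were 0.08 ± 0.14 and -0.10 ± 0.19, and the differences between genotypes did not pass (adjusted p = 0.99999 and 0.942).

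Rsad2, the antiviral enzyme viperin, averaged 11.2 ± 6.45 CPM in astrocytes of young KO mice and 30.8 ± 17.7 CPM in those of old ones (1.37 ± 0.37, adjusted p = 0.203). Without animal 12 the log2 fold change was 1.13 with an adjusted p of 0.604. Rsad2 passed the test in the microglia of the same mice, with a log2 fold change of 1.26 and an adjusted p of 0.0329. Adamts1, a secreted protease of the matrix, had 72.2 ± 19.7 and 40.9 ± 20.7 CPM in KO mice (-0.78 ± 0.23, adjusted p = 0.337) and -1.27 ± 0.25 in WT mice (adjusted p = 0.0404).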
